A study of Mus musculus with 20 samples.

Results

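The 39 genes described here encode the enzymes of glycolysis, the pentose phosphate pathway and glycogen metabolism, and they were chosen by name from 28632 genes counted in mouse islets. They were ordered into 6 branches. Upper glycolysis held 7 genes, lower glycolysis 10, the enzymes that set fructose bisphosphate levels 6, the pentose phosphate pathway 7, hexose entry 2 and glycogen 7. RNA was sequenced from whole islets of 12-week-old mice, kept in culture for 24 h, in 4 groups: 6 Ctrl, 4 β-Mfn1KO, 5 β-Mfn2KO and 5 β-Mfn1/2DKO libraries, with both sexes in each group. The knockouts carried floxed alleles of *Mfn1*, of *Mfn2* or of both, the genes for the mitochondrial fusion proteins mitofusin 1 and 2, and *Ins1*-Cre, which drives recombination in β-cells. Controls are labelled as wild type, but per the methods of the study they pool animals that carry only *Ins1*-Cre with animals that carry only the floxed alleles, all on a C57BL/6N background. The other cells of an islet keep both genes.

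Glycolysis splits glucose into pyruvate, which β-cells pass almost wholly to mitochondria, and its rate sets the ATP signal that triggers insulin release. Phosphofructokinase commits the sugar to this path, and fructose 2,6-bisphosphate, made and broken down by the PFKFB enzymes, switches phosphofructokinase on and fructose bisphosphatase off. The pentose phosphate pathway draws glucose 6-phosphate aside to make NADPH and ribose, and glycogen stores it as a branched polymer. Healthy β-cells are known for low levels of lactate dehydrogenase and of the low-Km hexokinases.

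The libraries held 12.4 to 20.3 M counts in Ctrl, 15.7 to 16.7 in β-Mfn1KO, 15.1 to 59.5 in β-Mfn2KO and 65.5 to 122.95 in β-Mfn1/2DKO. Depths over 40 M occurred in every double-knockout library, in 2 β-Mfn2KO libraries and in no Ctrl library, so depth and genotype could be separated only in part. Values are normalized counts, that is counts scaled by the TMM method to a common library size, and each adjusted p comes from the quasi-likelihood test of edgeR, adjusted by Benjamini and Hochberg's method over all 28632 genes. *Mfn1* stood at 1670.2 ± 113.9 in Ctrl (SD, n = 6), 674.1 ± 68.1 in β-Mfn1KO (SD, n = 4). It stood at 797.1 ± 164.6 in the double knockout (SD, n = 5). *Mfn2* stood at 3505 ± 519.2 in Ctrl, 1577 ± 80.5 in β-Mfn2KO and 2084 ± 45.1 in β-Mfn1/2DKO. The labelled genotypes therefore showed in the targeted genes. *Ins1*, the locus that carries Cre, was also lower in all 3 knockouts, by −0.82 in β-Mfn1KO, −0.94 in β-Mfn2KO and −2.60 in β-Mfn1/2DKO on the log2 scale.

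The tissue was islet by its markers, though not in equal parts. The summed level of 10 β-cell markers ran from 6058000 to 9685000 in Ctrl and from 2681000 to 3638000 in β-Mfn1/2DKO, and all 10 were lower there. All 6 endothelial markers were higher in β-Mfn1/2DKO, with sums of 7910 to 12430 against 5479 to 8166. Of 6 α-cell markers 1 passed, higher, and all 6 had positive log2 fold changes, with a median of 0.34. Their sums overlapped, at 1328000 to 2232000 in β-Mfn1/2DKO against 661300 to 2110000 in Ctrl. Of 7 duct markers 3 passed, all higher, and of 4 δ- and PP-cell markers 0 passed. The sum of 18 acinar markers reached 2086000 in β-Mfn1/2DKO against a highest value of 89580 in Ctrl, and β-Mfn1/2DKO libraries 4 and 5 and β-Mfn2KO library 4 held most of this RNA. Ctrl library 6 and β-Mfn2KO library 5 stood apart in macrophage and lymphocyte markers, with sums of 20810 and 29260 against at most 5523 elsewhere, and in stellate markers, at 12380 and 13250 against at most 3940. Without these 2 libraries, an alternative added after the values were seen, 15 of the 16 genes described next passed against Ctrl, all but *Fbp2* (0.92, adjusted p = 0.0728), and *Stbd1* stood at 2.86. In bulk RNA, fewer cells of a type and less RNA per cell cannot be told apart, and the part of other cells in the results that follow was not tested.

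Among the 39 genes, 16 passed an adjusted p of 0.05 in β-Mfn1/2DKO against Ctrl, 8 higher and 8 lower. Of all genes 16.5 percent passed, 9.59 percent higher and 6.86 percent lower, and so did 29.3 percent of the 15267 genes with enough counts for edgeR's filter. Of the 39 genes, 37 passed that filter, all but *Pgam2* and *Hkdc1*, and 34 averaged 100 normalized counts or more. Of the 39 genes, 4 (10.3 percent) also changed by more than 1.5-fold, against 5.21 percent of all genes and 8.17 percent of those past the filter: *Stbd1*, *Fbp2* and *Fbp1* rose and *Pfkfb2* fell. The median log2 fold change was −0.05 for the 39 genes and 0.056 for all genes. The libraries of the 2 groups did not overlap for 11 of the 39 genes, 4 higher and 7 lower, and for 10.6 percent of all genes. That share includes the genes with too few counts for the filter, and the share past the filter is not given here. The balance of higher and lower calls rested on how libraries were scaled. With counts scaled by their totals it was 11 to 2, with DESeq2's own size factors and test 8 to 13, with the authors' normalization factors 5 to 10 and with counts drawn down to the smallest library 5 to 11, and total-count scaling moved the median of well-counted genes from 0.036 to 0.175. No gene among the 16 changed its direction in any of these settings.

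**Figure D1:**
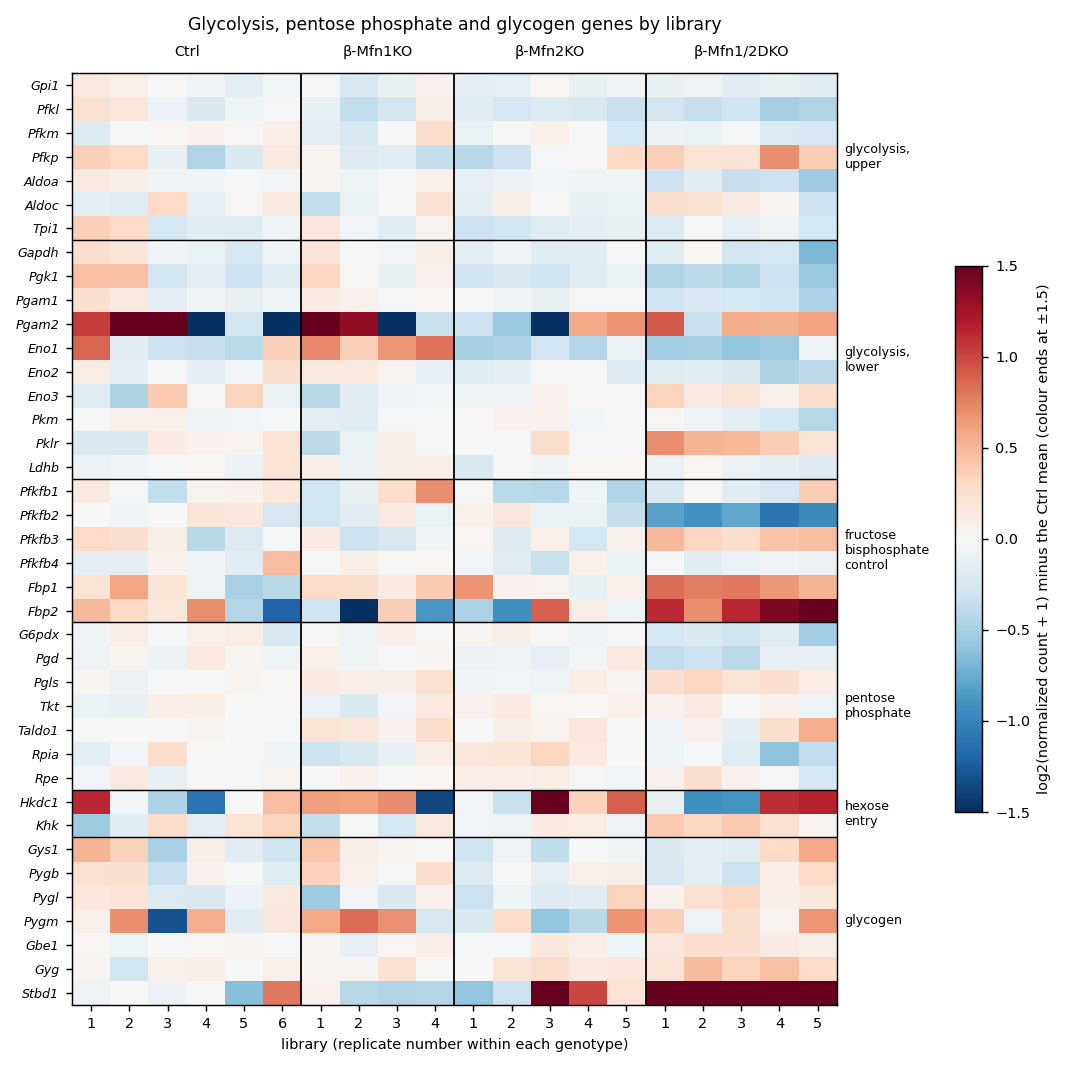
Each row is 1 of the 39 genes, ordered by branch, and each column 1 library, numbered within its genotype. Colour gives the log2 of the normalized count plus 1, minus the mean of the 6 Ctrl libraries. The row of *Stbd1* is red in all 5 β-Mfn1/2DKO libraries and that of *Pfkfb2* blue, while the rows of *Pgam2*, *Hkdc1* and *Pygm*, which had few counts, vary without regard to genotype.

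The 4 genes past the adjusted p and 1.5-fold are shown by the 250 bases before their transcription start. Of their calls, that on *Fbp2* was the least stable, as described below. The windows come from RefSeq on GRCm38.p6, at the start nearest the gene's annotated 5′ end, and are read 5′ to 3′ on the gene's strand. For *Pfkfb2*, which has 3 windows, even the nearest lies inside the gene, whose annotated 5′ end is at 130729253. Capitals mark CACGTG, the E-box, which also holds ACGTG, the core of the hypoxia response element, on both strands.
Stbd1 (chr5:92602801-92603050, plus strand): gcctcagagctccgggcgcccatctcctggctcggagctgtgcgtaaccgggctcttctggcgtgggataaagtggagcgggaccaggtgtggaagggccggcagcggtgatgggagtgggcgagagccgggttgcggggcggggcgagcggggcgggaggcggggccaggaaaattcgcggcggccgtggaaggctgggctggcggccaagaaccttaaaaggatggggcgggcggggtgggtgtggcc
Pfkfb2 (chr1:130716049-130716298, minus strand): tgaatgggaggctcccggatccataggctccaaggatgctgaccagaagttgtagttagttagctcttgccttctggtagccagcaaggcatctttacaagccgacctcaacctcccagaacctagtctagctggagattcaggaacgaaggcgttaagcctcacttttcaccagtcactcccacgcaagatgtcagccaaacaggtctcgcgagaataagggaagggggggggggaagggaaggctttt
Fbp1 (chr13:62888283-62888532, minus strand): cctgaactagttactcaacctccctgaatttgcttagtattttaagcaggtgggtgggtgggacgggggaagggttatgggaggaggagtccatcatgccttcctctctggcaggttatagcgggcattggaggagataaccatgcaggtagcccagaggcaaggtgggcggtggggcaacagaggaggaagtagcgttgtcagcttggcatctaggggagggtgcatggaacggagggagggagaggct
Fbp2 (chr13:62858401-62858650, minus strand): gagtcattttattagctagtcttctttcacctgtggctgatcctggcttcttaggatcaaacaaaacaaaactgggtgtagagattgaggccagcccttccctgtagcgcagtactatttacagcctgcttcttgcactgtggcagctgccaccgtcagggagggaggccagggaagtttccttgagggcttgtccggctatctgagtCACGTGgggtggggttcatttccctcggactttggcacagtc
*Fbp1* and *Fbp2* lie next to each other on chromosome 13, 6330 bases apart. Both motifs were searched on both strands. CACGTG was found in the *Fbp2* window alone among the 4 and in 3 of the 39 windows, against 6.02 percent of 32851 mouse promoter windows of the same length. ACGTG stood in 9 of the 39 windows (23.1 percent) and in 4 of the 16 genes that passed the test, against 16.6 percent of all windows. A match is a run of letters and not a measured binding site.

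Glycogen genes held the largest change. *Stbd1* encodes a protein that binds glycogen and tethers it to membranes. Its normalized count was 1940.5, 2582, 2309, 3068 and 4282 in β-Mfn1/2DKO. In Ctrl it ran from 276.9 to 747.1 with a median of 417.2. It was 449.4, 321.7, 315.4 and 316.0 in β-Mfn1KO and 284.9, 344.0, 1214, 863.6 and 494.0 in β-Mfn2KO. All 5 double-knockout libraries thus stood above all 15 others, and β-Mfn2KO libraries 3 and 4 above every Ctrl library. The log2 fold change against Ctrl was 2.66 (SE 0.29 and an adjusted p of 1.37e-06), a 6.32-fold increase. β-Mfn1/2DKO libraries 4 and 5, which held acinar RNA, had the highest *Stbd1* counts, and the log2 fold change without both came to 2.37.

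*Gyg*, which encodes glycogenin, the primer of glycogen synthesis, was at 969.2, 1175, 1069, 1148 and 1026 in β-Mfn1/2DKO and from 698.0 to 901.5 with a median of 879.8 in Ctrl. The ranges did not overlap, and the log2 fold change was 0.34 (SE 0.07 and an adjusted p of 0.00124). *Gbe1*, the glycogen branching enzyme, was at 1141, 1199, 1192, 1106 and 1086, just above the Ctrl range of 960.3 to 1043, with a log2 fold change of 0.18 (SE 0.05 and an adjusted p of 0.0224). The β-Mfn2KO range of *Gbe1*, 964.9 to 1133, overlapped with both groups. The call on *Gbe1* was among the least stable of the 16. It was kept in 9 of 14 alternatives and lost with the authors' factors (adjusted p = 0.153), with DESeq2's size factors in edgeR (adjusted p = 0.0602), without Ctrl libraries 1 and 2 (adjusted p = 0.0774), with a term for depth (adjusted p = 0.361) and with counts drawn down to the smallest library, where the log2 fold change was 0.08 (adjusted p = 0.489). No glycogen gene fell. Glycogen synthase *Gys1* and the phosphorylases *Pygb*, *Pygl* and *Pygm* did not pass, with log2 fold changes from −0.06 for *Pygb* to 0.16 for *Pygl*.

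The enzymes that set fructose bisphosphate levels moved in opposite directions by gene. *Pfkfb2* encodes the PFKFB form best known from β-cells and heart. Its normalized count was 4003, 3766, 4116, 3293 and 3638 in β-Mfn1/2DKO against 5909 to 8009 with a median of 7024 in Ctrl. In β-Mfn1KO it was 5823, 6302, 7749 and 6575 and in β-Mfn2KO 7422, 7941, 6571, 6569 and 5524. Every double-knockout library lay below every other library. Against Ctrl this was a log2 fold change of −0.91 (SE 0.09 and an adjusted p of 4.58e-07), 0.531 times the Ctrl level.

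*Pfkfb3*, the inducible PFKFB form with the strongest kinase activity, went the other way. It was at 907.1, 804.8, 777.2, 864.6 and 892.2 in β-Mfn1/2DKO and from 484.1 to 793.7 with a median of 659.4 in Ctrl. Only the lowest double-knockout library fell within the Ctrl range, and the log2 fold change was 0.37 (SE 0.11 and an adjusted p of 0.0183). This call was lost in 4 of 14 alternatives: with the authors' factors (adjusted p = 0.101), with counts drawn down (adjusted p = 0.0873), with a term for depth (adjusted p = 0.32) and without β-Mfn1/2DKO libraries 4 and 5 (0.36, adjusted p = 0.0692). *Pfkfb1* and *Pfkfb4* did not pass, at −0.05 and −0.10.

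Per transcript length, *Pfkfb2* made up 85.4 ± 2.77% of the 4 PFKFB transcripts in Ctrl (SD, n = 6), 85.0 ± 1.97% in β-Mfn1KO (SD, n = 4), 85.8 ± 2.10% in β-Mfn2KO (SD, n = 5). In the double knockout it fell to 73.5 ± 2.24% (SD, n = 5). *Pfkfb3* made up 7.65 ± 1.69% in Ctrl and 16 ± 1.52% in β-Mfn1/2DKO, and *Pfkfb4* 5.93 ± 1.59% and 8.85 ± 0.646%. A share within a family does not depend on how the libraries are scaled. For *Pfkfb2* and *Pfkfb3* the shares of the double knockout did not overlap with those of any other group. *Pfkfb2* remained the main transcript in each of the 20 libraries.

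**Figure D2:**
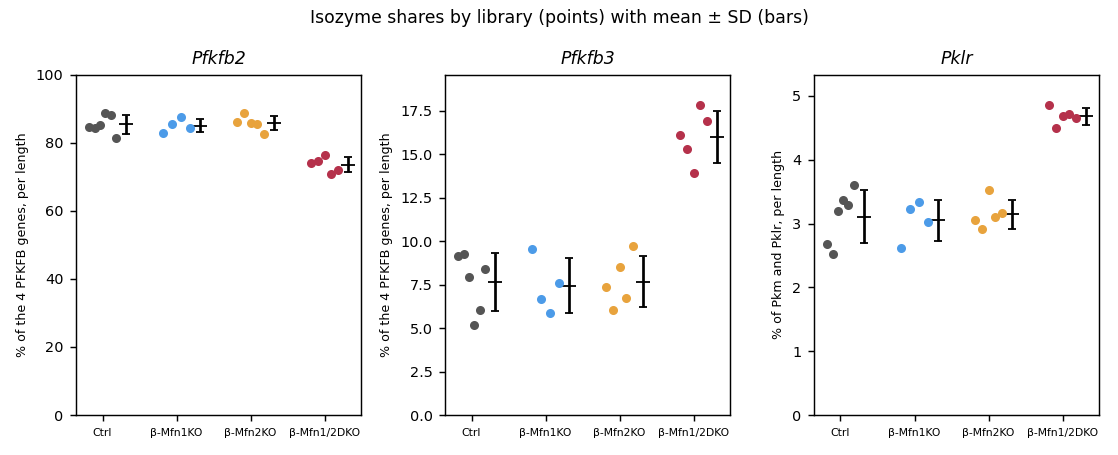
Each point is 1 library and each bar the mean ± SD of a genotype. The vertical axes give *Pfkfb2* and *Pfkfb3* as a percent of the 4 PFKFB genes and *Pklr* as a percent of *Pkm* and *Pklr*, per length. The 5 β-Mfn1/2DKO libraries lie below all others for *Pfkfb2*, at 70.7 to 76.5%, and above all others for *Pfkfb3*, at 13.9 to 17.8%, and for *Pklr*, at 4.49 to 4.85%.

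The fructose bisphosphatases catalyze the step of gluconeogenesis that opposes phosphofructokinase. *Fbp1* was at 1733, 1657, 1681, 1518 and 1385 in β-Mfn1/2DKO. In Ctrl it ran from 690.7 to 1459.5 with a median of 1009.8, and in β-Mfn2KO it was 1552, 1016, 1009.5, 897.0 and 1021. The lowest double-knockout library thus stood below the highest Ctrl library. Against Ctrl this was a log2 fold change of 0.66 (SE 0.15 and an adjusted p of 0.00294), a 1.58-fold increase.

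*Fbp2*, the muscle form, had far fewer reads. It was at 113.5, 83.9, 114.0, 137.6 and 147.7 in β-Mfn1/2DKO and from 21.8 to 84.2 with a median of 60.6 in Ctrl. A single double-knockout library reached into the Ctrl range. This was a log2 fold change of 1.08 (SE 0.36 and an adjusted p of 0.0431), and *Fbp2* was the least stable of the 16 calls. It was kept in 5 of 14 alternatives, and it was lost in 9 of the 20 fits that left out 1 library. In those 9 fits the adjusted p ran from 0.0512 without β-Mfn1KO replicate 1 to 0.0936 without Ctrl replicate 5. Without β-Mfn1/2DKO libraries 4 and 5 the log2 fold change was 0.91 (adjusted p = 0.175).

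**Figure D3:**
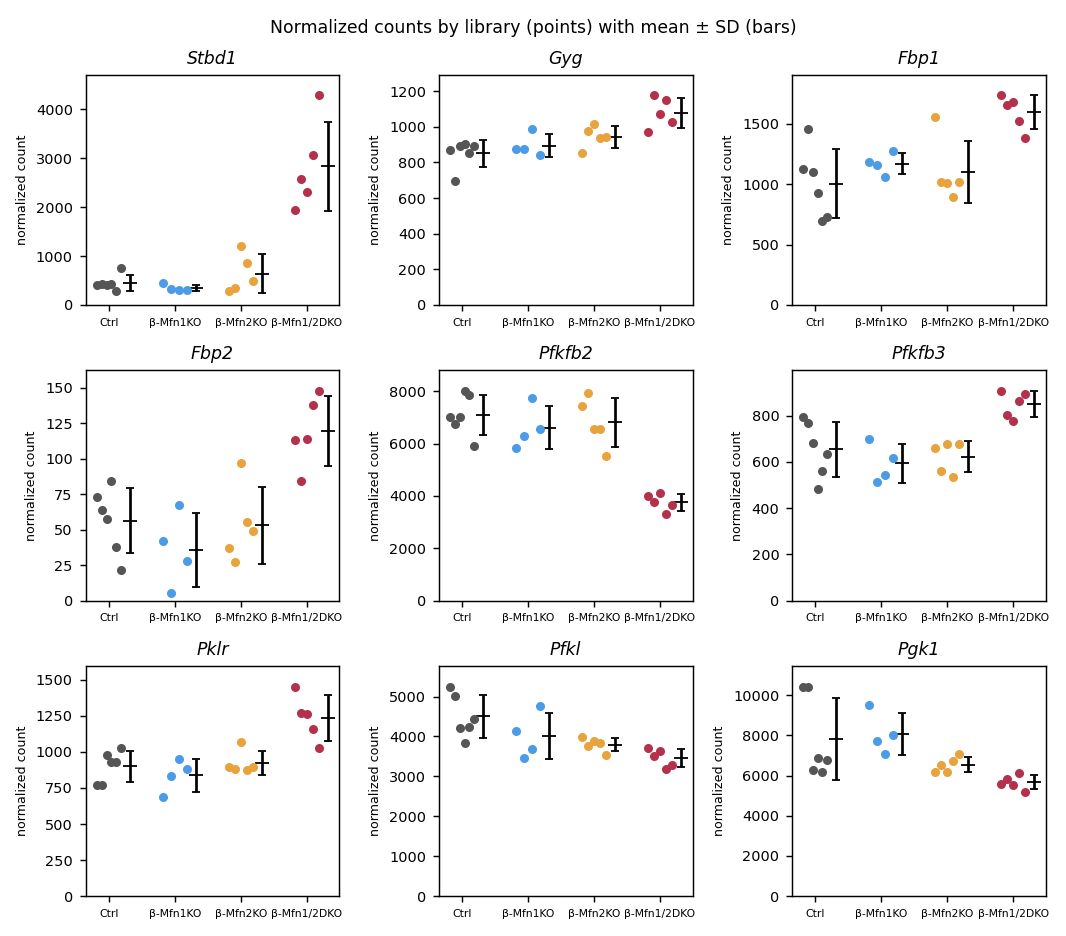
Normalized counts of 9 genes, with each library as a point and the mean ± SD of each genotype as a bar, on axes that start at 0. *Stbd1* and *Pfkfb2* separate the 5 β-Mfn1/2DKO libraries from all 15 others, and *Pgk1* is high in 2 of the 6 Ctrl libraries, at 10438 and 10401.

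In glycolysis, 6 of 17 genes (35.3 percent) passed, none of them past 1.5-fold. Of all genes 16.5 percent passed and 5.21 percent also changed by more than 1.5-fold. Of the genes past edgeR's filter these shares were 29.3 and 8.17 percent. In upper glycolysis, 2 of 7 genes fell and none rose. *Aldoa*, which encodes the main aldolase, was the gene of highest level per length among the 39 in Ctrl, at 639.1 TPM (counts per exon length, scaled to the same total in every library). Its normalized count was 25567, 27956, 25061, 25679 and 21833 in β-Mfn1/2DKO and from 30040.5 to 34907 with a median of 30904 in Ctrl. Every double-knockout library lay below the lowest of the other 15 libraries. Its log2 fold change was −0.33 (SE 0.06 and an adjusted p of 0.000468).

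*Pfkl*, the liver-type phosphofructokinase, was at 3703, 3519.9, 3643, 3176 and 3275 in β-Mfn1/2DKO, below the Ctrl range of 3848 to 5251. β-Mfn2KO, at 3539 to 3975, and β-Mfn1KO, at 3464 to 4768, overlapped with both groups. The log2 fold change of the double knockout was −0.38 (SE 0.08 and an adjusted p of 0.00162). *Pfkm*, the muscle type, was the leading phosphofructokinase in Ctrl with 58.4 ± 4.59% of the 3 transcripts per length, against 34.8 ± 3.40% for *Pfkl* and 6.79 ± 1.27% for *Pfkp*. In β-Mfn1/2DKO these shares were 59.9 ± 1.14%, 30.2 ± 0.963% and 9.84 ± 1.76%. With the longest transcript as length, the Ctrl shares were 48.3% for *Pfkm* and 44.2% for *Pfkl*, so the lead of *Pfkm* depended on the length used. *Gpi1*, *Pfkm*, *Pfkp*, *Aldoc* and *Tpi1* did not pass against Ctrl, with log2 fold changes from −0.16 for *Tpi1* to 0.35 for *Pfkp* (adjusted p = 0.0869).

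In lower glycolysis, 3 of 10 genes fell and *Pklr* rose. *Pgk1*, phosphoglycerate kinase, was at 5596, 5824, 5557, 6147 and 5199 in β-Mfn1/2DKO. In Ctrl it ran from 6169.8 to 10438 with a median of 6840.2. Every double-knockout library lay below all others, by a small margin at the nearest. On the log2 scale this came to −0.47 (SE 0.12 and an adjusted p of 0.00924), and it shrank to −0.20 (adjusted p = 0.0808) without Ctrl libraries 1 and 2, an alternative added after the values were seen.

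These 2 Ctrl libraries were the highest of the 6 controls for 13 of the 39 genes (33.3 percent), and for 16.8 percent of the 12274 genes that averaged 100 normalized counts or more. The 13 included *Tpi1*, *Gapdh*, *Pgam1* and *Aldoa*, and the ratio of the mean of both to that of the other 4 controls was 1.60 for *Pgk1* and 1.55 for *Gys1*. Without these 2 libraries 14 of the 39 genes passed in β-Mfn1/2DKO, 13 of them shared with the 16. The share of all genes that passed in that fit is not given here.

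*Pgam1*, phosphoglycerate mutase, was at 7059.9, 7384, 7208, 7063 and 6312 in β-Mfn1/2DKO and from 7901 to 10208 with a median of 8309 in Ctrl. The ranges did not overlap, and the log2 fold change was −0.32 (SE 0.06 and an adjusted p of 0.00115). *Eno2*, the neuronal enolase that endocrine cells also express, was at 2376, 2412, 2328, 1955 and 2065 against 2438 to 3194, a log2 fold change of −0.29 (SE 0.07 and an adjusted p of 0.00817). Without β-Mfn1/2DKO libraries 4 and 5, the lowest of the 5, that change was −0.17 (adjusted p = 0.181). With counts scaled by their totals *Pgk1*, *Aldoa*, *Pgam1* and *Eno2* kept their direction and did not pass (adjusted p = 0.0535 for *Aldoa* to 0.246 for *Eno2*), while *Pfkl* passed at −0.24. Annotated copies of *Pgk1* and *Pgam1* share sequence with 52.8 and 34.9% of their 75-base stretches, but had few counts, 1.22 and 8.14% as many as the gene.

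*Pklr* encodes the liver and red-cell pyruvate kinase, while *Pkm* encodes the form of most tissues. *Pklr* was at 1454, 1271, 1263, 1159 and 1024 in β-Mfn1/2DKO and from 767.6 to 1027 with a median of 931.4 in Ctrl. It was 683.9 to 953.7 in β-Mfn1KO and 877.3 to 1071 in β-Mfn2KO, so that 4 of 5 double-knockout libraries stood above all others. That gave a log2 fold change of 0.46 (SE 0.10 and an adjusted p of 0.00151). *Pkm* took up 96.9 ± 0.414% of both transcripts per length in Ctrl and 95.3 ± 0.130% in β-Mfn1/2DKO, and its own log2 fold change of −0.16 did not pass (adjusted p = 0.116). The exons of *Hcn3*, on the opposite strand, cover 22% of those of *Pklr*, and *Hcn3* had 82.3% as many counts. Whether reads were counted by strand is not given in the sources used here, so *Pklr* is uncertain to that extent.

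*Gapdh*, *Eno3*, *Ldhb* and *Pgam2* did not pass. *Gapdh*, often used as a reference gene, was at 20057 to 32575 in β-Mfn1/2DKO against 27357 to 38047 in Ctrl, with a log2 fold change of −0.26 (SE 0.10 and an adjusted p of 0.0739), and it passed with DESeq2 at −0.29.

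**Figure D4:**
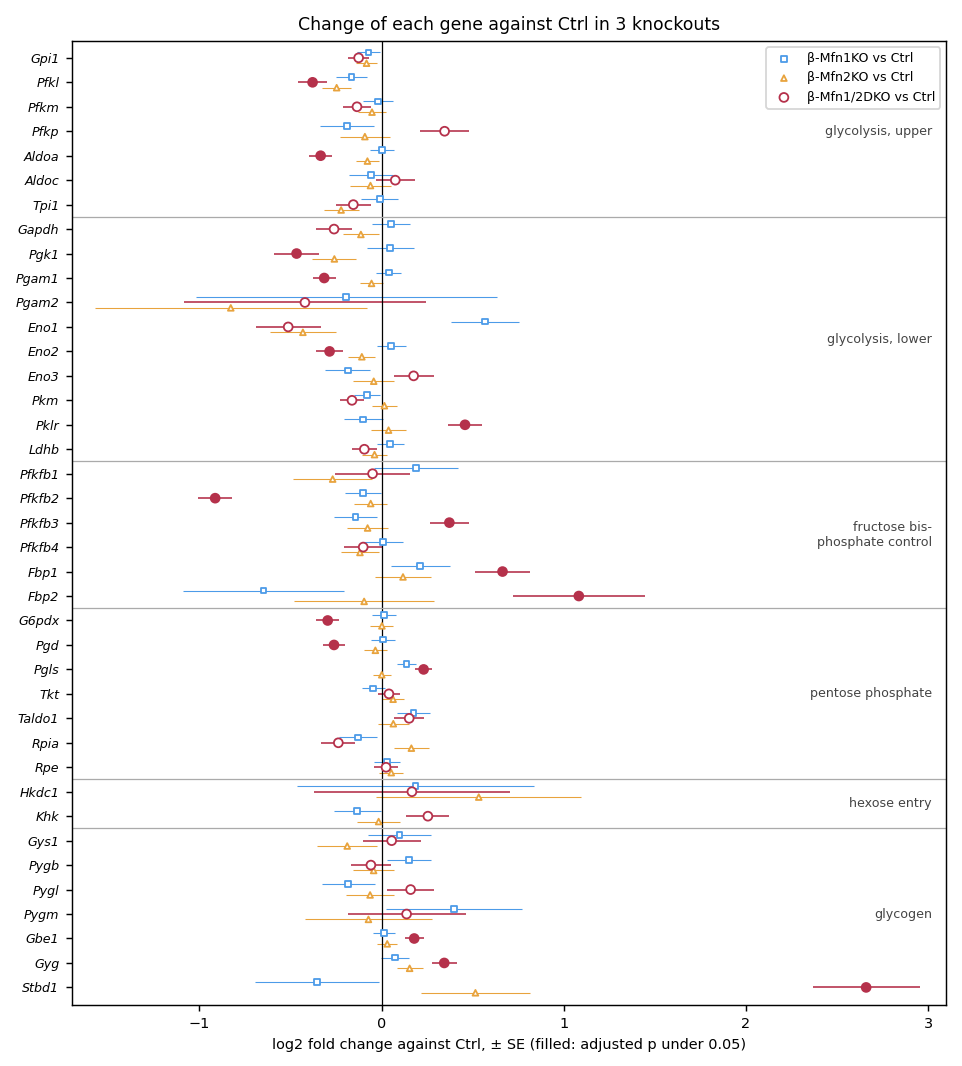
Log2 fold change against Ctrl of each of the 39 genes, ± SE, in the double knockout (circles), β-Mfn1KO (squares) and β-Mfn2KO (triangles), with filled markers where the adjusted p was under 0.05. The 16 filled markers are all circles. Most lie within 0.5 of 0, and *Stbd1* stands alone at 2.66.

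*Eno1*, the main enolase, could not be read on its own. Its copy *Eno1b* shares 22.6% of the 75-base stretches of *Eno1*, and the counts of both genes traded places between libraries. *Eno1b* took 46.5 to 50.7% of the counts of both in Ctrl libraries 2, 3, 4 and 5, but 0.248% in Ctrl library 1 and 23.1% in Ctrl library 6. It took 0.133 to 0.298% in all 4 β-Mfn1KO libraries, 38.0 to 51.1% in β-Mfn2KO and 24.0 to 51.5% in β-Mfn1/2DKO. β-Mfn1KO was thus the group in which every library nearly lacked *Eno1b*, and single libraries of Ctrl and β-Mfn1/2DKO also departed from an even split.

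The sum of both genes varied less among the Ctrl libraries than *Eno1* alone. It was 9134, 9292, 8679.5, 8844 and 7977 in β-Mfn1/2DKO and from 8997 to 11705 with a median of 10358 in Ctrl. The spread of *Eno1* over the Ctrl libraries, as SD over mean, was 40.4% alone and 10.2% for the sum. The log2 fold change in β-Mfn1/2DKO was −0.51 (SE 0.18 and an adjusted p of 0.0529) for *Eno1* alone and −0.25 (SE 0.07 and an adjusted p of 0.0267) for the sum. In β-Mfn1KO it was 0.57 alone (adjusted p = 0.571) and −0.06 for the sum (adjusted p = 0.885).

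**Figure D5:**
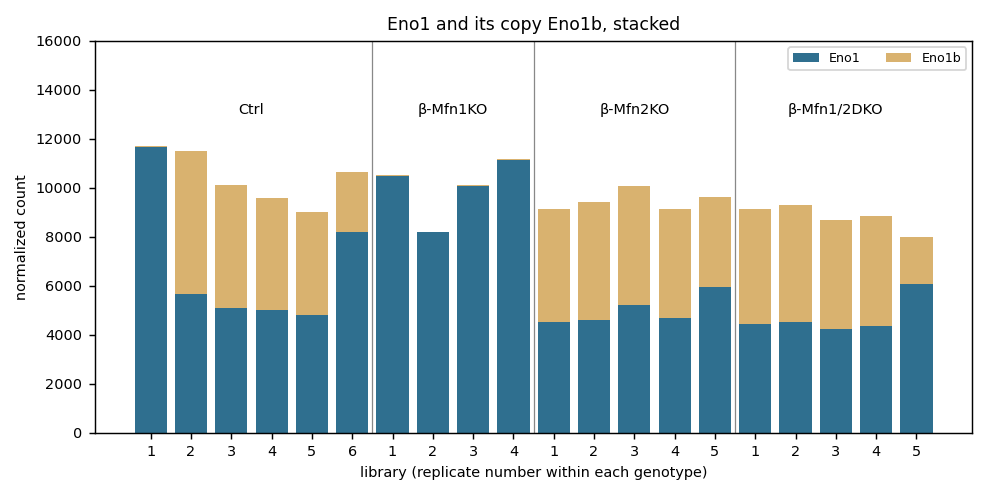
Normalized counts of *Eno1* and *Eno1b*, stacked, in each library. The height of the bars stays between 7977 and 11705 while *Eno1b* is nearly absent from Ctrl library 1 and all 4 β-Mfn1KO libraries.

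In the pentose phosphate pathway, 2 of 7 genes fell and 1 rose, all 3 in its oxidative arm. These 3 were 42.9 percent of the branch, against 16.5 percent of all genes and 29.3 percent of those past edgeR's filter. *G6pdx*, glucose 6-phosphate dehydrogenase, makes the first NADPH. It was at 1742, 1803, 1706, 1855 and 1468 in β-Mfn1/2DKO and from 1787 to 2276 with a median of 2157 in Ctrl. Ctrl overlapped with the double knockout only through its lowest library. This was a log2 fold change of −0.30 (SE 0.06 and an adjusted p of 0.00185). *Ikbkg*, on the opposite strand, covers 13.6% of the exon bases of *G6pdx* and had 127% as many counts.

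*Pgd*, which makes the second NADPH, was at 2397, 2493, 2343, 2849.6 and 2839 in β-Mfn1/2DKO, below the Ctrl range of 2905 to 3420.2. Its log2 fold change was −0.26 (SE 0.06 and an adjusted p of 0.00463). *Pgls*, the lactonase between both dehydrogenases, was instead higher, at 2226, 2323, 2156, 2227 and 2009 against 1754 to 1929, a log2 fold change of 0.23 (SE 0.05 and an adjusted p of 0.00137). With total-count scaling *G6pdx* and *Pgd* did not pass (−0.15 and −0.12), and *Pgls* passed at 0.37.

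The non-oxidative genes *Tkt*, *Taldo1*, *Rpia* and *Rpe* did not pass against Ctrl, with log2 fold changes from −0.24 for *Rpia* to 0.15 for *Taldo1*. *Taldo1*, of the highest level per length in this pathway at 130.4 TPM in Ctrl, was at 4668, 5072, 4361, 5738 and 7039 in β-Mfn1/2DKO, highest in libraries 4 and 5. Neither gene of hexose entry passed. *Khk*, ketohexokinase, was at 1384 to 1752 in β-Mfn1/2DKO against 918.8 to 1675 in Ctrl, with a log2 fold change of 0.25 (adjusted p = 0.161). *Hkdc1* had at most 51 counts in a library.

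No gene of the 39 passed in either single knockout with edgeR or with DESeq2, where 0.0279 percent of all genes passed in β-Mfn1KO and 0.0559 percent in β-Mfn2KO with edgeR. At an unadjusted p under 0.05 edgeR gave 2 genes in β-Mfn1KO, where 7.44 percent of all genes passed that mark, and 5 in β-Mfn2KO, against 4.22 percent. DESeq2 gave 2 and 4. *Stbd1* differed from Ctrl by −0.36 in β-Mfn1KO (SE 0.34) and by 0.51 in β-Mfn2KO (SE 0.30), and *Pfkfb2* by −0.10 and −0.06 (SE 0.10 and 0.09). Without Ctrl library 1, the control in which *Eno1b* was nearly absent, *Eno1* alone passed in β-Mfn1KO at 0.80 (adjusted p = 0.0171). These comparisons share their control libraries with that of the double knockout.

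Set against β-Mfn2KO, 13 of the 39 genes (33.3 percent) passed in β-Mfn1/2DKO, 7 higher and 6 lower. Of all genes 13 percent passed, 7.09 percent higher and 5.9 percent lower, and so did 23 percent of the genes past edgeR's filter. Of the 13 genes, 11 were among the 16 above, and the others were *Pfkp* (0.44, SE 0.14 and an adjusted p of 0.0409) and *Rpia* (−0.40, SE 0.10 and an adjusted p of 0.007). *Stbd1* differed by 2.14 (SE 0.30 and an adjusted p of 3.71e-05) and *Pfkfb2* by −0.85 (SE 0.10 and an adjusted p of 3.11e-06). Among the libraries of over 40 M counts alone, 2 β-Mfn2KO and 5 β-Mfn1/2DKO, 6 genes passed, where 6.3 percent of all genes did: *Stbd1* at 2.11, *Fbp2* at 1.24, *Fbp1* at 0.78, *Pfkfb3* at 0.53 and *Pklr* at 0.52 were higher and *Pfkfb2*, at −0.64, lower. With a term for libraries above that depth in the fit over all groups, 3 of the 16 genes passed against Ctrl, where 2.54 percent of all genes did, *Stbd1* at 2.51, *Pfkfb2* at −0.64 and *Pgd* at −0.41. The deep β-Mfn2KO libraries were 4 and 5. Library 4 had an acinar marker sum of 331300, and library 5 macrophage and stellate sums of 29260 and 13250. Depth and RNA of these other cells could therefore not be told apart within β-Mfn2KO.

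Whether losing *Mfn1* had another effect without *Mfn2* than with it was tested as an interaction. It was passed by 4 of the 39 genes (10.3 percent), by 5.92 percent of all genes and by 10.9 percent of the genes past edgeR's filter. The difference in log2 fold change was 2.50 for *Stbd1* (SE 0.45 and an adjusted p of 0.00168), −0.75 for *Pfkfb2* (SE 0.14 and an adjusted p of 0.0017), 0.59 for *Pfkfb3* (SE 0.16 and an adjusted p of 0.032) and 0.52 for *Pklr* (SE 0.14 and an adjusted p of 0.0334). The number of genes ran from 2 to 9 over the alternatives, and *Stbd1* and *Pfkfb2* passed in every one that was run.

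Genes that feed these pathways or act beside them were read from a second list of 58, of which 57 were found. In β-Mfn1/2DKO, 21 of the 57 passed, 11 higher and 10 lower, and 7 changed by more than 1.5-fold. As shares of the 57 these were 36.8 and 12.3 percent, against the 16.5 and 5.21 percent of all genes and the 29.3 and 8.17 percent of genes past the filter.

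*Slc2a2*, the glucose transporter GLUT2, was at 8098, 8064, 7695, 4924 and 5521 in β-Mfn1/2DKO against 17626 to 24562 in Ctrl, a log2 fold change of −1.60 (SE 0.15 and an adjusted p of 1.9e-07). *G6pc2*, the islet glucose 6-phosphatase, was at 25168 to 30939.6 against 43643 to 62082, a log2 fold change of −1.02 (SE 0.10 and an adjusted p of 3.96e-07). *Gfpt1*, which draws fructose 6-phosphate into hexosamines, fell by 0.63 (SE 0.11 and an adjusted p of 0.000209). The ranges of *Slc2a2*, *G6pc2* and *Gfpt1* in the double knockout lay below those of all other groups.

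*Ppp1r3b*, which directs protein phosphatase 1 to glycogen, was at 357.0, 377.5, 395.1, 382.9 and 365.1 in β-Mfn1/2DKO and from 140.1 to 272.9 in Ctrl, with all 5 above the other 15 libraries and a log2 fold change of 0.92 (SE 0.14 and an adjusted p of 4.82e-05). Of the 20 related glycogen genes, 2 passed higher and 2 lower, 20 percent in all and near the share of all genes. The lactate and pyruvate carrier *Slc16a1* rose by 1.05 (SE 0.33 and an adjusted p of 0.0315) and *Aldh1a1*, an aldehyde dehydrogenase, by 1.58 (SE 0.34 and an adjusted p of 0.00191), both highest in β-Mfn1/2DKO libraries 4 and 5. *Ldha*, lactate dehydrogenase A, did not pass (0.35, adjusted p = 0.653).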

How the data were processed

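The expected counts are those the authors deposited: paired-end reads aligned to GRCm38 with STAR 2.6.1b and assigned to genes with RSEM 1.3.1, per the methods and the submitters' processing notes, given as whole numbers without normalization. The deposited depth-normalized signal, counts divided by the authors' normalization factors, served only to recover those factors. No sample column was left out (0). The strand setting is not given in the sources used here.

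Counts of 28632 genes in 20 libraries were fitted in 1 model with 1 coefficient per genotype, using edgeR 4.0.16 in R 4.3.3 (TMM, glmQLFit, glmQLFTest, Benjamini-Hochberg over all genes), without a covariate. The step was tested on simulated data. Alternatives used DESeq2 1.42.0. Levels per length and isozyme shares divided counts by the bases of all exons in GENCODE M21, with pandas 2.3.3. Depth ran from 12.4 to 122.95 M counts, and the replicates are separate libraries whose number is not said to stand for litter or day, so p-values measure the spread between these libraries.

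The genes and lists were chosen with earlier results of these data known. Genes were named where the adjusted p was under 0.05 in a knockout against Ctrl (at most 25), or of the highest level in their branch, or, among related genes, past that p and 1.5-fold. *Eno1b* and the targeted genes were added. *Gapdh*, *Khk*, *Ldha*, *Pfkp* and *Rpia* were named after their values were seen. For *Aldoa*, the first of 2 matching gene IDs was used. Some related genes are not reported here.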

Additional observations from a re-analysis of the deposited data

Results flagged for a closer look

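Single libraries stood apart from the others of their genotype in 11 of 156 sets, each of 1 gene in 1 genotype (7.05%), by the gap to the nearest library, and chance gives about 1 in 20. *Eno1* was at 6063 in β-Mfn1/2DKO library 5 against 4247 to 4503 in the other 4. In β-Mfn2KO, *Pklr* was at 1071 in library 3 against 877.3 to 898.2, *Fbp1* at 1552 in library 1 against 897.0 to 1021, and *Pgd* at 3414 in library 5 against 2848 to 3010.2. In β-Mfn1KO, *Ldhb* was at 549.9 in library 2 against 620.9 to 625.3, *Hkdc1* at 2.77 in library 4 against 13.8 to 14.9, and *Stbd1* at 449.4 in library 1 against 315.4 to 321.7. In Ctrl, *Stbd1* was at 747.1 and *Pfkfb4* at 442.1 in library 6, against 276.9 to 435.0 and 285.6 to 337.3. *Rpia* was at 2696 in Ctrl library 3 against 2058 to 2252, and *Gyg* at 698.0 in Ctrl library 2 against 853.9 to 901.5.

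The effect of *Mfn1* loss differed by the state of *Mfn2* for 4 genes in the interaction test, with differences in log2 fold change of 2.50 for *Stbd1*, −0.75 for *Pfkfb2*, 0.59 for *Pfkfb3* and 0.52 for *Pklr*. This was 10.3 percent of the 39 genes, against 5.92 percent of all genes and 10.9 percent of those past edgeR's filter. With the authors' factors only *Stbd1* and *Pfkfb2* of the 4 passed.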

How the results depend on the processing

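Of the 16 genes called in β-Mfn1/2DKO against Ctrl, none reversed in any setting, and 7 lost their call nowhere except with depth class as a covariate, which left 3. Depth class also left 5 genes against β-Mfn2KO and 2 in the interaction, and libraries over 40 M counts gave 6 against β-Mfn2KO. Both settings rested on β-Mfn2KO libraries 4 and 5, which also stood apart in markers of other cells. The interaction count of 4 became 9 with DESeq2, 8 with filterByExpr, 2 with the authors' factors and 9 without Ctrl replicates 1 and 2, an alternative chosen after seeing the data that gave 1 gene in β-Mfn1KO. Leaving out each library in turn gave 14 to 17 genes against Ctrl, 0 to 1 in β-Mfn1KO (1 without Ctrl replicate 1), 0 in β-Mfn2KO, 10 to 15 against β-Mfn2KO and 2 to 7 in the interaction, with 7 without Ctrl replicate 1 and 2 without Ctrl replicate 3, β-Mfn1KO replicate 2, β-Mfn2KO replicate 2 or β-Mfn2KO replicate 4. The gene gained in β-Mfn1KO was *Eno1*, both without Ctrl replicate 1 and without Ctrl replicates 1 and 2. *Eno1* also passed the interaction in these fits, at −0.876 and −0.87. In all libraries the sum of *Eno1* and *Eno1b* did not pass, at −0.06 in β-Mfn1KO and −0.049 in the interaction. Shares of all genes in these refits are not given here, apart from those stated above. The cause of these shifts was not tested. With the longest transcript as length, the Ctrl share in its family was 48.3% for *Pfkm*, 99.0% for *Aldoa*, 68.5% for *Eno1*, 98.3% for *Pkm* and 75.8% for *Pygb* (58.4, 98.3, 54.5, 96.9 and 83.8% with all exons). *Pfkl* stood at 44.2% by the longest transcript, near *Pfkm*. The share of *Eno1* leaves out *Eno1b* and ran from 45.8 to 69.1% over the Ctrl libraries with all exons, so it is uncertain. The interaction needs all 4 groups, so it has no fit to fewer. Genes with few counts, *Pgam2*, *Hkdc1* and *Pygm*, were limited by depth.

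The deviations of libraries with the same replicate number from their group means had a mean correlation of 0.12 over 27 pairs, from −0.123 to 0.327, with 16 over 0.1, against a mean of −0.0267 over 122 pairs with other numbers. Not every pair was over 0.1, so the numbers were not taken to pair the libraries, and 9 of 20 libraries correlated best with their own number. That mark is not a test of pairing. Libraries numbered 1 and 2 were all female and those numbered 4 to 6 all male, so number and sex overlapped. With the replicate number as a block the counts were 18 against Ctrl, 0 in β-Mfn1KO, 0 in β-Mfn2KO, 13 against β-Mfn2KO and 5 in the interaction. The shares of all genes in that fit are not given here.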
